A study of Lactuca sativa with 24 samples.

Results

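The 6 days that wild-type baby leaves of the lettuce variety Luna bionda spent under visible light were followed by RNA sequencing, with 3 libraries at day 6 under visible light alone and 3 libraries at day 0. These 6 of the 24 libraries of the study were grouped by their labels, and the comparison was chosen with earlier results of these data known. The other libraries came from leaves of Luna bionda given UVB, and from leaves of Falstaff, also wild type, under visible light with or without UV. Polyadenylated leaf RNA was amplified as cDNA before sequencing, and reads were counted per gene. No light period, irradiance or plant age is given in the labels for these groups, and the labels do not tell whether replicates are different plants. The p-values therefore cover the variation among these libraries, part of which may be technical.

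A young lettuce leaf in visible light builds and maintains chloroplasts, whose proteins are encoded partly by the plastid genome and mostly by nuclear genes. Carbon fixed in the chloroplast leaves it as triose phosphates, and ammonium is taken up into glutamine by glutamine synthetase. Transcripts of plastids and plant mitochondria mostly lack a stable poly(A) tail, so that libraries of polyadenylated RNA represent nuclear genes.

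The labels and the names of the deposited tables disagree on which of these libraries are day 0. By the labels, all 6 libraries are as given above. By the names of the tables, the 3 libraries labelled day 0 are the day 6 visible-light set, day 6 replicates 2 and 3 belong to day 0, and day 6 replicate 1 belongs to a UVB set. The groups here follow the labels, and which naming is right was not settled. The difference between days is therefore given below also without day 6 replicate 1. The remaining libraries then form the same groups under both namings, with the days exchanged. By the names of the tables, the day 0 set also holds a library labelled UVB, which is not among the 6.

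No gene passed the test for a difference between day 6 and day 0. Of 21456 genes with a mean of at least 0.5 CPM (the reads of a gene scaled to the same total in every library) over the 6 libraries, 0 had a limma adjusted p under 0.05, and the smallest adjusted p was 0.953. At an unadjusted limma p under 0.05 there were 533 genes, 2.48% of those tested. The quasi-likelihood test of edgeR on the recovered reads called 0 genes, with 690 at an unadjusted p under 0.05, and DESeq2 called 3 genes (0.014%). Without day 6 replicate 1, limma called 0 of 21300 genes, with 408 at an unadjusted p under 0.05. Within the 5 libraries of a single batch range, that is without day 0 replicate 2, limma called 0 genes, with 138 at an unadjusted p under 0.05. Sample weights in limma called 30 genes, 21 of them lower, but put a weight of 84.1 on day 6 replicate 2 beside 0.251 to 0.771 on the others.

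The distances between libraries of the same day overlapped with those between libraries of different days. Among 14793 genes with a mean of at least 5 CPM, between 769 and 5278 were at least 2-fold apart on the log2(CPM + 0.5) scale in the 9 pairs of a day 6 library with a day 0 library, with a median of 2977 genes. Within day 6 the 3 pairs differed in 1546, 1991 and 4973 genes, and within day 0 in 1432, 2881 and 2930 genes. The closest pair of all 15 joined day 6 replicate 2 with day 0 replicate 3. The number of genes that were at least 2-fold apart in every one of the 9 pairs between the days, in the same direction, was 0.

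**Figure D1:**
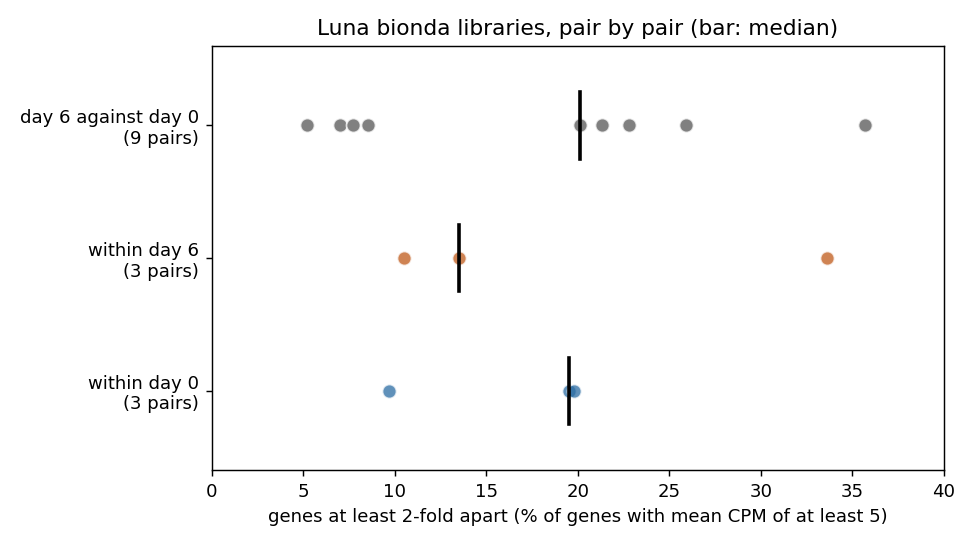
Share of 14793 genes that were at least 2-fold apart in each pair of libraries (x axis, percent), for pairs of a day 6 with a day 0 library, pairs within day 6 and pairs within day 0; each point is a pair and each black bar the median. The pairs between days run from 5.2% to 35.7% and cover the range of the pairs within day 6 (10.5% to 33.6%) and within day 0 (9.68% to 19.8%).

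Single libraries set the main axes of variation. The first principal component of log2(CPM + 0.5), with 38.6% of the variance, set day 0 replicate 2 at 105.8 and the other 5 libraries between -60.9 and -4.4. The second, with 33.2%, set day 6 replicate 1 at 74.9 and day 6 replicate 3 at -74.6, with all 3 day 0 libraries between them. The difference between the days held 18.5% of the sum of squares over all tested genes. Any split of the 6 libraries into 2 groups holds some share, and other splits were not computed. Day 0 replicate 2 was the shallowest library, with 12072410 reads in genes against 29653670 to 43276819 in the others, and its batch number in the labels lay in another range than those of the others. The part of depth or batch number in these distances was not tested.

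Summary values of the libraries overlapped between the days. The 10 genes with the most reads held 6.66% ± 1.25 of reads at day 6 and 6.5% ± 0.74 at day 0 (SD, n = 3 each; exact permutation test, two-sided p = 0.9). Long noncoding RNA genes held 2.85% ± 0.596 at day 6 and 3.03% ± 0.59 at day 0 (exact permutation p = 0.6), and 19506 ± 382 genes at day 6 and 19273 ± 276 at day 0 reached 1 CPM (exact permutation p = 0.6). With 3 libraries a group the smallest p possible is 0.1, and the adjusted p over these 3 tests was 0.9 for each.

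Organelle genes, the one group of leaf genes that the annotation names, had few reads at both days. The leaf label could be checked against plastid genes alone, since the gene table gives no product names for nuclear markers. RuBisCO large subunit (rbcL) had 0 reads in all 6 libraries, which allows at most 0.0693 to 0.249 CPM by library. All plastid genes together held 0.000758% to 0.00331% of reads, and all mitochondrial genes 0.00142% to 0.00273%. Only 8 plastid and 10 mitochondrial genes passed the filter, none of them with an unadjusted limma p under 0.05. Their median log2 fold changes, day 6 over day 0, were 0.06 in plastids, from -0.61 to 0.46, and -0.26 in mitochondria, from -0.56 to 0.65, beside 0.13 over all tested genes.

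Of the 8 plastid genes, 4 belong to the lists by role, and encode parts of the photosystems and of the cytochrome complex that joins them. psbA, which encodes the D1 protein of the photosystem II reaction centre, had 452, 18 and 211 reads at day 6 against 124, 60 and 210 at day 0, and the day 6 libraries lay both above and below all day 0 libraries. Its log2 fold change was -0.15, with a 95% interval from -1.94 to 1.65, and its sign turned with edgeR and DESeq2, to 0.42 and 0.44. psaC, the subunit of photosystem I that carries iron-sulfur clusters, had 46, 94 and 102 reads at day 6 against 64, 12 and 63 at day 0, and the groups overlapped. psbB, which encodes a chlorophyll-binding core protein of photosystem II, had 60, 4 and 18 reads at day 6 against 36, 0 and 12 at day 0. petB, cytochrome b6 of the cytochrome b6f complex, was at 3.44, 1.09 and 2.23 CPM at day 6 against 2.68, 1.57 and 2.52 CPM at day 0, with overlapping groups.

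Of the 10 mitochondrial genes, 4 belong to the lists of respiratory chain genes. cob, the cytochrome b gene, had 18, 21 and 25 reads at day 6 against 26, 16 and 39 at day 0. In CPM its groups did not overlap, with 0.607, 0.485 and 0.776 at day 6 below 0.829, 1.33 and 0.955 at day 0, and its log2 fold change was -0.45 (limma unadjusted p = 0.332). The cytochrome oxidase genes cox1 and cox2 and the complex I gene nad4 had overlapping groups, with log2 fold changes of -0.31, 0.09 and -0.06. The lists of plastid ATP synthase, NDH complex and RNA polymerase genes had no member above the filter, and all 4 RNA polymerase genes had no read.

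Nuclear genes with a biological name in the gene table numbered 2, and the day 6 values of both lay inside the range of day 0. Triose phosphate isomerase (LOC111889525, named TIM and TPI), which interconverts the triose phosphates of glycolysis and carbon fixation, was at 1597, 1555 and 1412 CPM at day 6 against 1651, 1352 and 1518 CPM at day 0. Its log2 fold change was 0.02, with a 95% interval from -0.69 to 0.73, and it was -0.13 with TMM scaling. The gene named GS(1) (LOC111883376), a name used for cytosolic glutamine synthetase, was at 312, 338 and 288 CPM at day 6 against 387, 321 and 241 CPM at day 0. The log2 fold change was 0.01 with a 95% interval from -0.65 to 0.67, and it was -0.14 with TMM scaling. The other genes below are protein-coding or noncoding by the table and have no product name there, so that no role is given for them.

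A 2-fold change lay outside the 95% interval for part of the genes only. For 4888 genes, 22.8% of those tested, the 95% interval of the log2 fold change lay within -1 to 1, each interval taken on its own. The share was 48.8% of the 3566 genes with a mean of at least 50 CPM, 26.8% of the 11227 genes between 5 and 50 CPM, and 2.03% of the 6663 genes below 5 CPM. The median standard error was 0.43 and the median distance from the estimate to either end of the interval 0.93. An estimated change of at least 2-fold occurred in 853 genes (3.98%), 507 of them higher and 346 lower at day 6, against 277 higher and 489 lower with TMM and 289 higher and 479 lower with median-of-ratios factors. None had a limma adjusted p under 0.05 with equal weights. Without day 6 replicate 2 the count of genes with an interval within -1 to 1 was 1007, without day 0 replicate 3 it was 1711, without day 0 replicate 1 it was 1895 and without day 6 replicate 3 it was 2529.

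The genes with the narrowest intervals had nearly equal levels in each of the 6 libraries, as their choice by a small spread implies. LOC111877494 was at 100.1, 95.6 and 103 CPM at day 6 against 98.6, 91.2 and 96.1 CPM at day 0, with a log2 fold change of 0.06 and a 95% interval from -0.53 to 0.66. LOC111880895 was at 142, 129 and 122 CPM at day 6 against 132, 129.7 and 128 CPM at day 0. LOC111881856 was at 82.0, 93.2 and 89.7 CPM at day 6 against 90.7, 91.1 and 91.8 CPM at day 0. In these genes the groups overlapped, as they did in LOC111911160 and LOC111893601, whose log2 fold changes were -0.08 and 0.08. The signs of such small values depend on the scaling, since the log2 fold change had a median over all tested genes of 0.13 with library totals, -0.00 with TMM and 0.01 with median-of-ratios factors, and with TMM LOC111877494, LOC111880895 and LOC111893601 were at -0.08, -0.14 and -0.07.

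The genes with the most reads also overlapped between the days. LOC111884730 had the most, with 11347, 13089 and 19997 CPM at day 6 against 15852, 13925 and 12071 CPM at day 0, and a log2 fold change of 0.05 with a 95% interval from -0.98 to 1.08. LOC111902831 was at 5586, 8337 and 5645 CPM at day 6 against 6369, 3343 and 5627 CPM at day 0, with a log2 fold change of 0.38. LOC111896763 was at 2566, 6122 and 6120 CPM at day 6 against 3555, 3657 and 4286 CPM at day 0, so that day 6 replicate 1 was the lowest of all and the other day 6 libraries the highest. LOC111908249 and LOC111916590 had log2 fold changes of -0.15 and -0.08, also with overlapping groups.

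**Figure D2:**
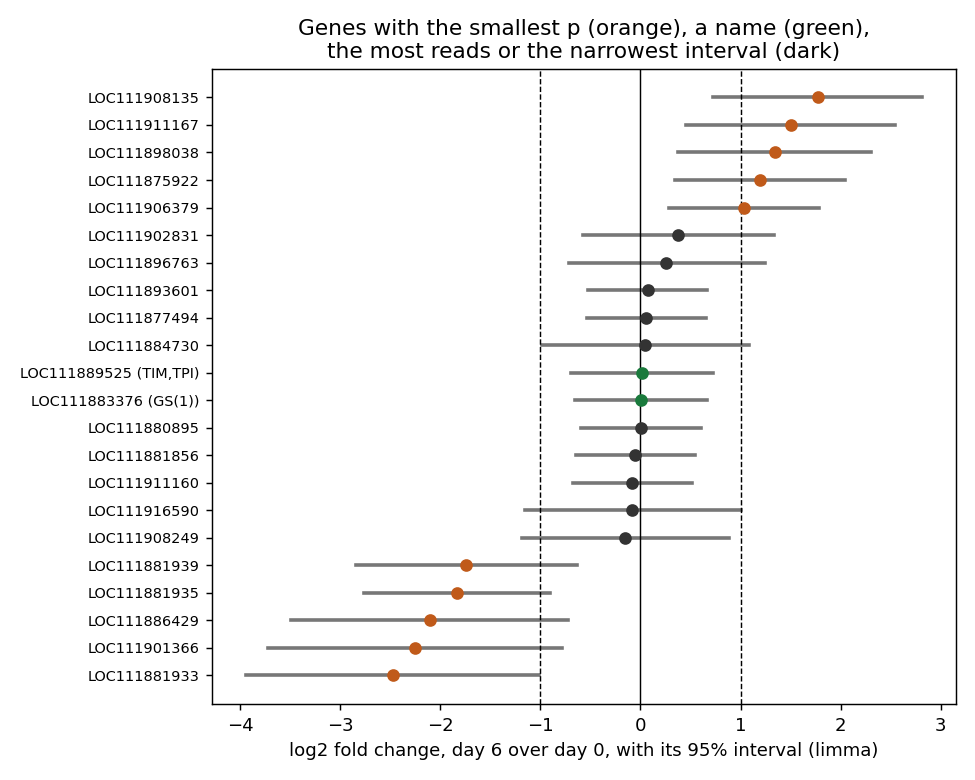
Log2 fold change, day 6 over day 0 (x axis), with its 95% interval from limma, for the genes with the smallest unadjusted p (orange), the nuclear genes with a name (green), and those with the most reads or the narrowest intervals (dark). Dashed lines mark 2-fold. The intervals of TIM,TPI (-0.69 to 0.73) and GS(1) (-0.65 to 0.67) lie inside them, and every orange gene has a limma adjusted p of 0.953 with equal weights.

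The groups did not overlap in 1506 genes, 7.02% of those tested. The smallest exact permutation p possible with 3 libraries a group is 0.1, so such separation alone marks no change. In 1055 of them (4.92%) day 6 was higher and in 451 (2.1%) it was lower. The balance of directions depended on the scaling: at an unadjusted limma p under 0.05, 338 genes (1.58%) were higher and 195 (0.909%) lower with library totals, whereas TMM gave 198 higher and 407 lower, and median-of-ratios factors 250 higher and 364 lower. The genes named next were those with the smallest unadjusted p among genes with a mean of at least 5 CPM whose groups did not overlap, and are given as values and not as changes.

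On the higher side, LOC111908135 was at 22.1, 40.5 and 23.1 CPM at day 6 against 10.8, 3.48 and 11.8 CPM at day 0. Day 0 replicate 2 was the lowest and day 6 replicate 2 the highest. The log2 fold change was 1.77 with a standard error of 0.47 (limma unadjusted p = 0.00312, adjusted p = 0.953). The noncoding RNA LOC111911167 was at 15.2, 8.62 and 9.74 CPM at day 6 against 5.42, 1.66 and 4.56 CPM at day 0, and the 95% interval of its log2 fold change ran from 0.46 to 2.54. It had 0 CPM in the 4 deep Falstaff libraries of the same days. LOC111898038, LOC111875922 and LOC111906379 had log2 fold changes of 1.34, 1.19 and 1.03, and in all 5 genes day 0 replicate 2 was the lowest of the 6 libraries. With sample weights LOC111908135, LOC111875922 and LOC111898038 had a limma adjusted p under 0.05.

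On the lower side, LOC111881935 was at 36.7, 20.5 and 11.5 CPM at day 6 against 56.9, 104 and 70.2 CPM at day 0. Its log2 fold change was -1.83 with a standard error of 0.42 (limma unadjusted p = 0.00111, adjusted p = 0.953; DESeq2 adjusted p = 0.0311). LOC111901366 was at 43.3, 27.2 and 4.16 CPM at day 6 against 63.4, 124 and 75.6 CPM at day 0, a log2 fold change of -2.25. LOC111886429 was at 14.0, 8.46 and 3.20 CPM at day 6 against 25.9, 87.4 and 15.9 CPM at day 0, a log2 fold change of -2.10. The remaining pair, LOC111881933 and LOC111881939, had log2 fold changes of -2.47 and -1.74. In all 5 genes day 6 replicate 3 was the lowest library. Day 0 replicate 2 was the highest in 4 of them and close to the highest in LOC111881933, with 54.4 CPM beside 55.1 CPM in day 0 replicate 3.

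DESeq2 called 2 further genes, both lower at day 6 with an adjusted p of 0.0311, and both rested mainly on day 0 replicate 2. The noncoding RNA LOC128133941 was at 0.405, 0.0924 and 0.186 CPM at day 6 against 0.319, 13.8 and 1.47 CPM at day 0. TRNAG-GCC_29, a tRNA gene by its symbol, had 0 reads in the 3 day 6 libraries against 0.128, 4.31 and 0.171 CPM at day 0. Neither had a limma adjusted p under 0.953 with equal weights.

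Of the genes whose smallest p lay on the lower side, LOC111881935, LOC111881933 and LOC111881939 are neighbours in the RefSeq gene order. They belong to 10 consecutive tested genes that were all lower at day 6 at an unadjusted limma p under 0.05, beside 0.909% of all tested genes. Among 21441 ordered genes, stretches of genes with an unadjusted p under 0.05 in the same direction had 1 gene in 493 cases, 2 genes in 13 cases, 3 genes in 1 case and 10 genes in 1 case. The stretch was found in these values and was given no test of its own. The order of its tested genes is LOC111881939, LOC111881935, LOC111881937, LOC111881938, LOC111881934, LOC128126641, LOC128126642, LOC111881933, LOC128126643 and LOC111881957, all protein-coding. The table of RefSeq lists 23 genes from the first to the last of them, of which 15 are in the deposited tables and 3 protein-coding ones fell under the filter.

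None of the 10 had a limma adjusted p under 0.05 with equal weights. With sample weights 3 did, LOC111881935, LOC111881934 and LOC128126642, beside 0.14% of all genes. With equal weights their median log2 fold change was -1.79, beside 0.13 over all tested genes. The groups did not overlap in 7 of them, beside 2.1% of all tested genes with no overlap and lower values at day 6. The 10 genes were picked by direction and unadjusted p in these same libraries, so these values and shares follow in part from that choice. LOC111881938 was at 49.9, 43.4 and 34.3 CPM at day 6 against 53.1, 189 and 117 CPM at day 0, a log2 fold change of -1.31. LOC111881937 was at 38.6, 27.2 and 6.58 CPM at day 6 against 49.4, 57.1 and 68.6 CPM at day 0, a log2 fold change of -1.56. In both genes the highest day 6 library lay below the lowest day 0 library, which was replicate 1. LOC111881933 was at 18.2, 11.9 and 1.68 CPM at day 6 against 27.8, 54.4 and 55.1 CPM at day 0, and LOC111881939 at 38.4, 22.4 and 8.63 CPM against 42.0, 96.3 and 72.5 CPM at day 0.

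Members with lower counts also had their lowest value in day 6 replicate 3. LOC111881957 was at 4.35, 3.93 and 3.41 CPM at day 6 against 7.81, 9.44 and 15.6 CPM at day 0, a log2 fold change of -1.33 with no overlap. LOC128126641 was at 4.76, 3.10 and 0.372 CPM at day 6 against 4.78, 12.9 and 19.5 CPM at day 0, so that 1 library of each day was almost level. In LOC111881934, LOC128126642 and LOC128126643 the groups overlapped, with log2 fold changes of -2.43, -2.14 and -1.74. Across the 10 genes, day 6 replicate 3 was the lowest of the 6 libraries in 10, day 0 replicate 2 the highest in 5 and day 0 replicate 3 the highest in 5.

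**Figure D3:**
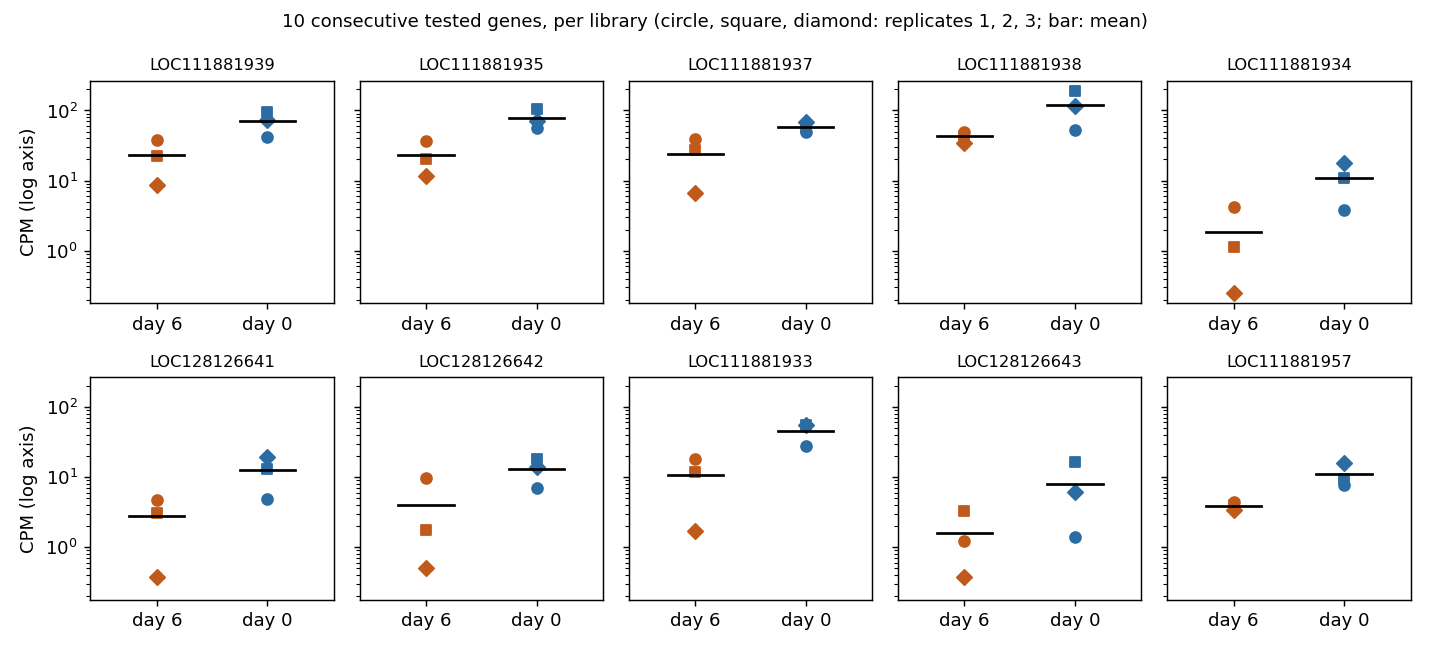
CPM (log axis) of the 10 neighbouring genes in the 3 day 6 libraries (orange, left) and the 3 day 0 libraries (blue, right); circles, squares and diamonds are replicates 1, 2 and 3 and bars are means. The diamond of day 6 is the lowest point in each panel, and the groups do not overlap in 7 panels.

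By the rule that formed it, the stretch ended at the first tested gene on either side that was not lower at an unadjusted limma p under 0.05. The flanks therefore show no tested boundary. LOC111881951, next to the first member, was at 14.7, 19.2 and 16.5 CPM at day 6 against 18.9, 24.4 and 19.3 CPM at day 0, a log2 fold change of -0.30 (limma unadjusted p = 0.368). LOC111881955, next to the last, was at 144, 103 and 72.7 CPM at day 6 against 85.8, 59.0 and 87.4 CPM at day 0, a log2 fold change of 0.43 (limma unadjusted p = 0.228). Both flanking genes had overlapping groups.

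Summed over the 10 genes, the level was 206, 139 and 67.6 CPM at day 6 (137 ± 69.3, SD, n = 3) against 254, 568 and 456 CPM at day 0 (426 ± 159, SD, n = 3). The groups did not overlap, which the choice of these genes by direction and unadjusted p favours, and the spread within each was wide. Other Luna bionda leaves at day 6 ranged further. The 3 libraries given UVB for 2.5 h per day were between 5.04 and 49.1 CPM. The 2 deep libraries given UVB for 7.5 h per day were at 58.3 and 340 CPM. All 3 libraries at 2.5 h have batch numbers in the range of day 0 replicate 2, unlike those of day 6 under visible light. UVB and batch range coincide there, and the part of either was not tested. In Falstaff the deep libraries of the same comparison were at 3.41 and 10.1 CPM at day 6 and at 5.18 and 22.1 CPM at day 0, all below every Luna bionda library of these days. Neighbouring genes of similar sequence can share reads. The treatment of reads with several matches is not given in the sources used here, so the split of reads between these genes is uncertain.

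All 10 were lower at day 6 with TMM and with median-of-ratios scaling, with median log2 fold changes of -1.93 and -1.92, and without each library in turn. These fits and the authors' deposited table share libraries with the values in which the stretch was found, and are no separate test of it. Without day 6 replicate 1, 9 of 10 had an unadjusted limma p under 0.05, 1.32% of all genes were lower at that threshold, and the median log2 fold change was -2.23. Without day 6 replicate 3 the median was -1.31, and without day 0 replicate 2, within a single batch range, it was -1.58 with 9 of 10 at an unadjusted p under 0.05, beside 0.323% of all genes. With the spread estimated from all 12 Luna bionda libraries, 1 of 10 had an unadjusted p under 0.05, beside 0.0839% of all genes lower at that threshold, and from the 11 deep ones 3 of 10, beside 0.401%. The authors' deposited table sets 2 of the day 6 libraries and 1 library labelled UVB against the 3 day 0 libraries. That UVB library, replicate 1 at 7.5 h per day, is the Luna bionda library left out of the 11 deep ones. Its batch number lies in the range of day 0 replicate 2. In that table all 10 had a negative log2 fold change, from -4.19 to -1.69, and 2 had an adjusted p under 0.05. Over all genes, 60 in the authors' deposited table had an adjusted p under 0.05, 0.276% of those with one, and 15 of these (0.0689%) had a negative log2 fold change. Over genes with a base mean above 50, 97.0% of the signs in the authors' deposited table were those of the 3 other libraries over the 3 labelled day 0.

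**Figure D4:**
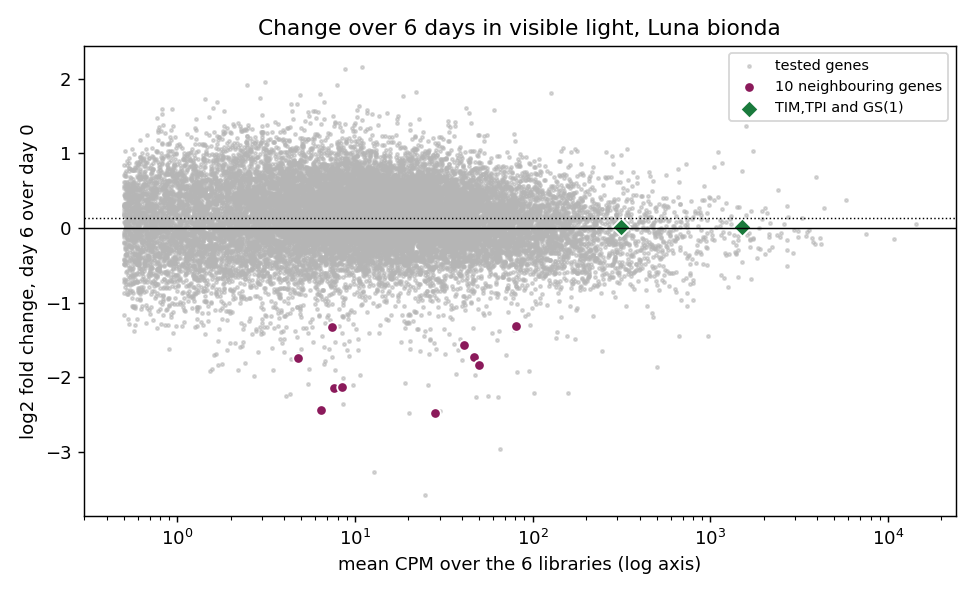
Log2 fold change, day 6 over day 0, against the mean CPM of the 6 libraries (log axis) for 21456 tested genes (grey); the 10 neighbouring genes are purple and TIM,TPI and GS(1) green, and the dotted line is the median of 0.13. The 10 genes lie between -2.47 and -1.31, and the green genes at 0.02 and 0.01.

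The stretch of 3 neighbours was formed by the same rule, so its shared direction, lower at day 6, follows from that choice. At an unadjusted limma p under 0.05, 0.909% of all tested genes were lower. Groups with no overlap and lower values at day 6 occurred in 2.1% of all tested genes. LOC111889181 was at 203, 186 and 208 CPM at day 6 against 368, 433 and 339 CPM at day 0, a log2 fold change of -0.93, and its groups did not overlap. LOC111914027 was at 256, 225 and 347 CPM at day 6 against 856, 344 and 821 CPM at day 0, a log2 fold change of -1.20. LOC111914026 was at 10.4, 17.2 and 5.43 CPM at day 6 against 13.3, 21.95 and 32.2 CPM at day 0, a log2 fold change of -1.05. In both of these genes the groups overlapped, and no member had a limma adjusted p under 0.953 with equal weights. With sample weights LOC111914027 had an adjusted p under 0.05.

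Genes with the widest spread over the 6 libraries had their extremes in the same pair of libraries. LOC111901153 was at 58.1, 8.73 and 0.931 CPM at day 6 against 3.35, 74.7 and 2.47 CPM at day 0. LOC111915976 was at 19.9, 4.76 and 2.05 CPM at day 6 against 4.30, 257 and 104 CPM at day 0, and LOC111906534 at 23.5, 11.1 and 1.24 CPM against 5.87, 316 and 26.1 CPM at day 0. In each of the 5 genes of widest spread, LOC111884415 and the noncoding RNA LOC122195143 included, day 0 replicate 2 was the highest library and day 6 replicate 3 the lowest. The groups overlapped in all 5.

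A gene with at least 10 reads in each day 6 library and 0 reads in each day 0 library occurred once, and the reverse did not occur. LOC111888148 had 20, 22 and 14 reads at day 6, or 0.675, 0.508 and 0.434 CPM, against 0 reads in 84269615 at day 0. Against a floor of 3 reads over the day 0 group, 0.0356 CPM, its day 6 mean was 15.1-fold higher. This floor pools the day 0 libraries and leaves out the variation between them. The gene was picked for its 0 reads at day 0, so a high fold follows from the choice. It fell under the filter on mean CPM and was not tested.

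Noncoding genes were described as classes, with values scaled to library totals. The balance of directions over all genes turned with TMM and median-of-ratios factors, as given above. Of 1773 long noncoding RNA genes tested, 0 were called, 47 were higher and 16 lower at day 6 at an unadjusted limma p under 0.05, where 1.58% of all genes were higher and 0.909% lower, and the groups did not overlap in 9.42%, beside 7.02% of all genes. Their median log2 fold change was 0.15. Of 96 small nucleolar RNA genes tested, which guide the modification of ribosomal RNA, 0 were called, 0 were higher and 4 lower at that threshold, with the same shares over all genes, and the median was -0.28. The small nucleolar RNA genes together were at 217, 328 and 569 CPM at day 6 against 301, 585 and 407 CPM at day 0, so the groups overlapped.

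Whether the change over 6 days differed between Luna bionda and Falstaff was tested as an interaction over 10 deep libraries, 2 in each Falstaff group. Of 21957 genes 0 had a limma adjusted p under 0.05, 882 (4.02%) had an unadjusted p under 0.05, and edgeR called 0 genes with 1035 at that level. Without Luna bionda day 6 replicate 2, 581 genes were at that level. LOC111902665 was at 41.4, 30.1 and 19.98 CPM at day 6 against 19.1, 18.6 and 12.5 CPM at day 0 in Luna bionda, and at 21.2 and 27.4 CPM at day 6 against 64.3 and 74.6 CPM at day 0 in Falstaff. The difference of the log2 changes was 2.32 (limma unadjusted p = 0.000891, adjusted p = 0.967). LOC111921374 had at most 0.098 CPM in the Luna bionda libraries, and 42.4 and 45.7 CPM at day 6 against 7.86 and 6.00 CPM at day 0 in Falstaff, a difference of -2.62 (limma adjusted p = 0.967).

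The other genes named by that rule had their wider range in Falstaff. LOC111910535 was at 134, 99.5 and 140 CPM at day 6 against 70.8, 59.7 and 112 CPM at day 0 in Luna bionda, and at 16.8 and 69.6 CPM at day 6 against 167 and 152 CPM at day 0 in Falstaff. LOC111881845 was at 9.91, 8.37 and 6.42 CPM at day 6 against 7.91, 9.44 and 9.04 CPM at day 0 in Luna bionda, and at 39.0 and 48.2 CPM at day 6 against 10.5 and 11.7 CPM at day 0 in Falstaff. LOC111894262 and LOC111892407 had differences of 2.66 and -2.04, and every one of these 6 genes had a limma adjusted p of 0.967. The names of the deposited tables also give the Falstaff libraries as other conditions, so the days of this comparison hold for the labels only.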

How the data were processed

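The submitters' processing notes name STAR and featureCounts 1.6.3. Genome build, annotation and use of strand: not given in the sources used here. Normalized signal for each gene was deposited in 7 tables of 6 libraries, each with a table by the authors of a log2 fold change, its standard error, a test score, a p-value and an adjusted p-value per gene. Deposited values were whole multiples of a step, and 100.0% gave whole reads (relative tolerance 0.001). These were divided by library totals to give CPM for 31499 genes, which allowed libraries from several tables to be joined. Of the identifiers, 31046 matched RefSeq (Lsat_Salinas_v11), used for names, biotypes and gene order. No sequence or coordinate is printed. RefSeq's table gives no product names, so 13 lists by product could not be filled.

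The main test was limma 3.58.1 with trend (R 4.3.3) on log2(CPM + 0.5), for genes with a mean of at least 0.5 CPM, with Benjamini-Hochberg adjustment at 0.05. Fold changes on this scale understate those of low genes. edgeR 4.0.16 and DESeq2 1.42.0 ran on the recovered reads as alternatives, beside other scalings, pseudocounts, filters, libraries fitted, sample weights, a batch term and a replicate block. The limma step was tested on simulated data. Named genes are the 5 with the smallest unadjusted p per direction without overlap (mean of at least 5 CPM), the 5 with the widest spread and narrowest intervals (at least 20 CPM), the 5 with the most reads, genes with reads at 1 day only, tested organelle list members, and for the interaction 3 per direction. TIM,TPI, GS(1), the neighbouring genes and their flanks, and the genes called by DESeq2 were named after their values were seen. The comparison, lists and rules were chosen with earlier results of these data known.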

Additional observations from a re-analysis of the deposited data

How the results depend on the processing

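The count of 0 called genes was also 0 with TMM and median-of-ratios scaling, pseudocounts of 0.1 and 2, no filter, a mean of at least 5 CPM, edgeR, a batch-number term, the 12 or the 11 deep Luna bionda libraries (the last chosen after seeing the data), and without each library in turn. It was 3 with DESeq2, and 30 with sample weights, 21 of them lower, where the estimate stopped before convergence with a weight of 84.1 on day 6 replicate 2 and 0.251 to 0.771 on the others. Genes at an unadjusted p under 0.05 numbered 533, and 138 without day 0 replicate 2, 250 without day 6 replicate 2, 1025 without day 0 replicate 3, 1763 without day 6 replicate 3, 136 with the batch-number term, 75 and 293 with the 12 and 11 Luna bionda libraries, 922 with DESeq2 and 4488 with sample weights. The interaction had 0 calls in every alternative run for it, and 187 genes at an unadjusted p under 0.05 with all 12 libraries of the varieties and days, 106 with these and a replicate block, and 581 without day 6 replicate 2.

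Same-numbered libraries were not paired by the labels, and their deviations correlated at -0.02, 0.12 and 0.16. A replicate block gave 0 calls and 714 genes at an unadjusted p under 0.05. By these deviations from the group means, day 6 replicates 2 and 3 correlated best with their own number and replicate 1 did not.

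The 4888 genes with an interval within -1 to 1 became 10998 with a pseudocount of 2, 10565 with no filter, 13220 with sample weights and 1287 with 12 libraries, and ranged from 1007 to 4900 without 1 library; the cause was not tested. Signs near 0 turned with TMM, median-of-ratios, edgeR and DESeq2: LOC111877494 -0.08, -0.07, -0.08 and -0.06; LOC111880895 -0.14, -0.12, -0.15 and -0.13; LOC111893601 -0.07, -0.06, -0.07 and -0.05; LOC111889525 -0.13, -0.12, -0.14 and -0.12; GS(1) (LOC111883376) -0.14, -0.12, -0.18 and -0.16. psbA (LasaCp001) was at 0.42 with edgeR, 0.44 with DESeq2, 0.09 with a pseudocount of 2, -2.44 with sample weights, and from -1.02 to 1.03 without 1 library. With sample weights LOC111877494 was at -0.01, LOC111881856 at 0.03 and psbB (LasaCp048) at -0.77. The share of genes with such an interval was lowest under 5 CPM, at 2.03%.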
